A study of Mus musculus with 8 samples.

Results

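The members are 32 mouse genes of the glutamate receptor families and their auxiliary subunits, chosen by symbol from the 54532 genes of the deposited table, and all 32 were found. They comprise 4 AMPA, 7 NMDA, 5 kainate and 1 delta receptor subunits, 7 metabotropic receptors, 6 AMPA receptor auxiliary subunits of the TARP family and 2 kainate receptor auxiliary subunits. They were followed in RNA-seq libraries of the substantia nigra of male C57BL/6 mice, 2 libraries per group. The α-Syn group had received AAV-α-synuclein, an adeno-associated virus that carries the gene of the protein found in the inclusions of Parkinson's disease. The AKG group had received α-ketoglutarate, a metabolite of the citric acid cycle given with the diet according to the series title, and the α-Syn_AKG group had received both. The WT group was the control. The labels give no age, dose or promoter of the vector, name no vector for the AKG and WT groups, and do not say whether the libraries came from separate or pooled animals. The p-values therefore measure the spread between these libraries, which may be technical.

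Glutamate is the main excitatory transmitter of the brain. AMPA, NMDA, kainate and delta receptors are ion channels or channel-like proteins assembled from 4 subunits, and the subunits chosen set how fast the channel closes and how much calcium it passes. Metabotropic receptors are coupled to G proteins: group I receptors raise the excitability of the postsynaptic cell, while group II and III receptors mostly reduce transmitter release. Several TARPs, though not all, carry AMPA receptors to the synapse and slow their closing, and Neto proteins are partners of kainate receptors that slow their closing. Dopamine neurons of the substantia nigra receive glutamate input from the subthalamic nucleus and cortex.

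Of the 32 members, 30 had a mean of at least 1 FPKM (fragments per kilobase of gene, scaled to library size) over the 8 libraries and were tested with 13716 genes in all. The lowest WT mean among these 30 was 1.30 FPKM (Grin2a), so none passed through the treated groups alone. Grin3b, an NMDA subunit gene, had 0.173 to 0.412 FPKM. Grm6, the receptor of retinal ON bipolar cells, was listed at 0 in 7 libraries and had 2 reads in 1 α-Syn_AKG library. A count of 0 for Grm6 allows up to 0.0286 to 0.0327 FPKM, for counting error only. Each of the 30 tested members had at least 149 recovered reads in every library.

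No tested member passed an adjusted p of 0.05 in any comparison, yet the members shared a low level in WT replicate 1. WT replicate 1 was the lowest of the 8 libraries for 30 of 30 tested members, against 36.3% of all genes tested and 72.1% of the longest 20% of genes. WT replicate 2 was also below all 6 libraries of the other groups for 13 of 30 members, against 18.2% of all genes tested and 42.4% of the longest 20%. In what follows these 6 are called the treated libraries. The 13 members were Gria3, Grin1, Grin2a, Grin2b, Grin2c, Grin2d, Grik3, Grik5, Grm4, Cacng2, Cacng4, Cacng5 and Neto1. On the log2(FPKM + 1) scale the 2 libraries of a group differed by a median over the members of 0.11 in α-Syn, 0.14 in AKG and 0.20 in α-Syn_AKG, but of 0.57 in WT. All 30 members were higher in WT replicate 2 than in WT replicate 1.

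**Figure D1:**
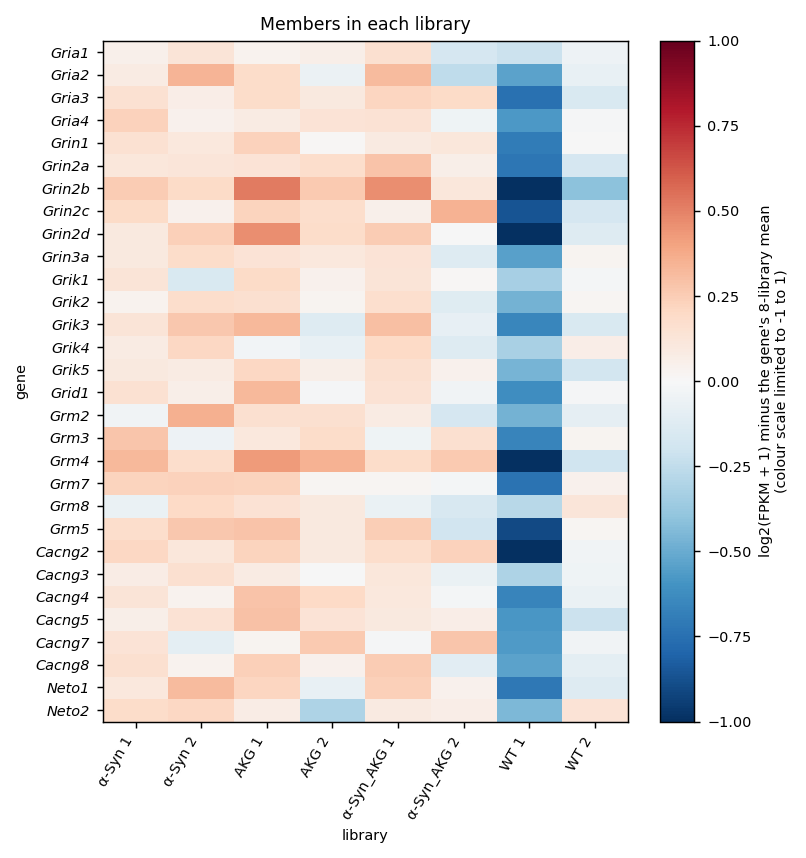
Each row is a tested member and each column a library, and the colour is log2(FPKM + 1) minus the gene's mean over the 8 libraries (limited to -1 to 1). The column of WT replicate 1 is blue in all 30 rows, while WT replicate 2 is below the mean in 22 of 30.

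WT replicate 1 stood apart over the whole transcriptome, with a mean Spearman correlation with the other libraries of 0.926 against 0.971 to 0.975 for the other 7. Recovered reads per library ranged from 16544190.0 to 19125423, with 18397030.0 in WT replicate 1. WT replicate 1 also held the most choroid plexus RNA: the summed FPKM of 8 choroid plexus markers was 55.2 to 4949.9 in the 6 treated libraries, against 8929.7 in WT replicate 1 and 453 in WT replicate 2. The medians and counts over the members in comparisons with WT are given both with and without WT replicate 1. The 3 comparisons with WT share these control libraries.

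Dopamine neuron markers were read in the same libraries. Th, which encodes tyrosine hydroxylase of the dopamine pathway, was detected in every library, with 12.6 and 16.1 FPKM in α-Syn, 10.7 and 10.4 FPKM in AKG, 14.6 and 16.6 FPKM in α-Syn_AKG, and 38.8 and 38.8 FPKM in WT. The summed level of 10 dopamine neuron markers was 68.7 and 71.0 FPKM in α-Syn, 57.0 and 66.3 FPKM in AKG, 74.9 and 87.8 FPKM in α-Syn_AKG, against 152 and 151 FPKM in WT. Both Th and this sum were lower in every treated library than in WT and lowest in AKG. They are therefore no check of which treatment a library received. In these whole-tissue samples fewer cells of a type in the piece taken and less RNA per cell cannot be told apart.

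Genome sequence before the start of 21 of the 32 members was available in a RefSeq promoter table of build GRCm38.p6. The upstream 250 bases of Cacng5 and Grik5 are shown because both genes were among the 4 members with the smallest p in each comparison with WT. Capitals mark the GC box letters GGGCGG, searched on both strands. Cacng5 lies on chromosome 11, minus strand (chr11:107915056-107915305), and its sequence belongs to 1 of 2 listed starts. Grik5 lies on chromosome 7, minus strand (chr7:25072370-25072619).
Cacng5: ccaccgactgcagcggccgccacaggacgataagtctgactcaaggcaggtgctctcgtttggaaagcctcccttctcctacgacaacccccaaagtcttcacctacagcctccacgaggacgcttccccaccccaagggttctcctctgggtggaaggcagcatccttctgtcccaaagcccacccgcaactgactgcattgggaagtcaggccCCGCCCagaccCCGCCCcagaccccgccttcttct
Grik5: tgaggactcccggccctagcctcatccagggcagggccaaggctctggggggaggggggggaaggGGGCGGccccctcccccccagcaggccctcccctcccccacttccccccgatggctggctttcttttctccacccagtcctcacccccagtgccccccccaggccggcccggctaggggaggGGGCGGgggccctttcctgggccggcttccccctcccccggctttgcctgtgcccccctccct
Each sequence held 2 GC boxes, and the share of G and C was 62.0% for Cacng5 and 75.2% for Grik5, beside a median of 52.4% over all promoters of the table. A GC box was present in 11 of the 21 members with an entry, against 35.4% of all genes in the table. The cAMP response element TGACGTCA was in none of the 21, against 1.77% of all genes. The TATA letters TATAAA, on either strand, were found only in Grin3b among these 21 members, against 14.3% of all genes. The letters TTCAGCACC, part of the RE1 motif of the repressor REST, were found only in Grm2, against 0.348% of all genes. These matches describe letters in a window and carry no statement on binding.

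AMPA receptor subunits form the fast excitatory channels. Gria1 was the most abundant, with 64.1 and 67.9 FPKM in α-Syn, 63.3 and 64.3 FPKM in AKG, 69.5 and 55.1 FPKM in α-Syn_AKG, and 53.2 and 59.7 FPKM in WT. Both α-Syn and both AKG libraries lay above WT, while the α-Syn_AKG libraries lay on either side of WT replicate 2. Its log2 difference from WT was 0.22 ± 0.14 in α-Syn, 0.18 ± 0.14 in AKG and 0.13 ± 0.14 in α-Syn_AKG (± SE, n = 2 per group), with limma adjusted p of 0.375, 0.479 and 0.618. With WT replicate 1 left out it was 0.14, 0.096 and 0.052.

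Gria3, an AMPA subunit gene on the X chromosome, had 8.21 and 7.68 FPKM in α-Syn, 8.45 and 7.89 FPKM in AKG, 8.64 and 8.46 FPKM in α-Syn_AKG, and 3.94 and 6.46 FPKM in WT. All 6 treated libraries were above both WT libraries. The difference from WT was 0.56 ± 0.18 in α-Syn (limma adjusted p = 0.294) and 0.65 ± 0.18 in α-Syn_AKG (adjusted p = 0.349), and with WT replicate 1 left out it was 0.26 and 0.36. Gria2, whose edited subunit keeps calcium out of the channel, and Gria4 ranged from 11.0 to 17.1 FPKM and from 16.0 to 19.6 FPKM in the treated groups, against 8.85 and 12.6 FPKM for Gria2 and 10.8 and 16.4 FPKM for Gria4 in WT. For both genes 1 α-Syn_AKG library fell below WT replicate 2, so those groups overlapped.

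NMDA receptors need Grin1, the glycine-binding subunit, together with GluN2 subunits that bind glutamate. Grin1 had 31.0 and 29.9 FPKM in α-Syn, 32.7 and 28.0 FPKM in AKG, 29.5 and 30.1 FPKM in α-Syn_AKG, and 16.7 and 27.7 FPKM in WT. The treated libraries did not overlap WT, but the lowest of them, at 28.0 FPKM, was close to WT replicate 2. The log2 differences of Grin1 were 0.48, 0.47 and 0.45 in α-Syn, AKG and α-Syn_AKG against WT (each ± 0.22, SE), and 0.13, 0.12 and 0.10 with WT replicate 1 left out. With each library's smooth trend in gene length removed as well they were 0.0081, -0.0012 and -0.00015.

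Grin2b encodes the GluN2B subunit, which gives slowly closing NMDA receptors. It is the longest member (24842 bases of exon, chromosome 6) and had the largest ratio of the treated mean to WT replicate 2, at 1.88. Its level was 4.95 and 4.71 FPKM in α-Syn, 6.14 and 5.002 FPKM in AKG, 5.91 and 4.41 FPKM in α-Syn_AKG, and 0.890 and 2.76 FPKM in WT, from 1961 to 2852 reads in the treated libraries and 427 and 1260 reads in WT. No treated library overlapped WT, and WT replicate 1 held 0.323 times the level of WT replicate 2. The log2 difference was 1.13 ± 0.30 in α-Syn, 1.30 ± 0.30 in AKG and 1.20 ± 0.30 in α-Syn_AKG (SE, n = 2 per group; limma adjusted p = 0.294, 0.269 and 0.349). It was 0.63, 0.80 and 0.70 without WT replicate 1, and 0.34, 0.52 and 0.45 with the length trend removed as well.

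Grin2c, Grin2d and Grin2a, the other GluN2 genes, also had both WT libraries lowest, while the order of the treated libraries differed between them. Grin2c ranged from 11.3 to 14.2 FPKM in the treated groups against 5.56 and 9.65 FPKM in WT. Grin2d, typical of midbrain and subthalamic neurons, ranged from 5.87 to 8.49 FPKM against 2.19 and 5.30 FPKM in WT, and Grin2a from 2.21 to 2.76 FPKM against 0.866 and 1.74 FPKM in WT. All 4 GluN2 genes had 6 treated libraries above both WT libraries, against 14.3% of all genes tested. Among genes of 7249 to 41324 bases, which include Grin2a and Grin2b, the share was 38.6%. Among genes of 4855 to 7248 bases, which include Grin2c and Grin2d, it was 18.7%. Grin3a, which lowers calcium entry through NMDA receptors, ranged from 6.40 to 8.20 FPKM against 4.55 and 7.23 FPKM in WT, so 1 α-Syn_AKG library lay below WT replicate 2.

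Summed over the class, NMDA subunit FPKM was 62.8 to 71.0 in the treated libraries against 30.9 and 54.8 in WT, kainate subunit FPKM 39.97 to 47.1 against 27.9 and 37.0 in WT, and TARP FPKM 149 to 173 against 97.9 and 144 in WT. These 3 sums did not overlap WT. The AMPA subunit sum was 90.6 to 113 FPKM against 76.8 and 95.1 FPKM in WT and overlapped it through α-Syn_AKG replicate 2. Shares within a receptor class do not depend on the scale of a library, but they can carry its trend with gene length. Grin2b made up 18.8% and 18.5% of the summed GluN2 FPKM in α-Syn, 20.5% and 18.6% in AKG, 21.7% and 16.5% in α-Syn_AKG, and 9.36% and 14.2% in WT. Gria1 made up 60.4% to 62.3% of the summed AMPA subunit FPKM in the 6 treated libraries, against 69.3% and 62.7% in WT. Grin1 made up 44.6% to 47.6% of the summed NMDA subunit FPKM in the treated libraries, against 54.0% and 50.7% in WT. Neither WT library overlapped the treated ones in these 3 shares, and in each WT replicate 2 lay between WT replicate 1 and the treated range. Grik5 made up 55.2% to 59.9% of the summed kainate subunit FPKM in the treated libraries and 59.3% and 54.8% in WT, which overlapped. With 2 libraries per group an exact two-sided permutation test cannot give a p below 0.333, so no test was made on shares.

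**Figure D2:**
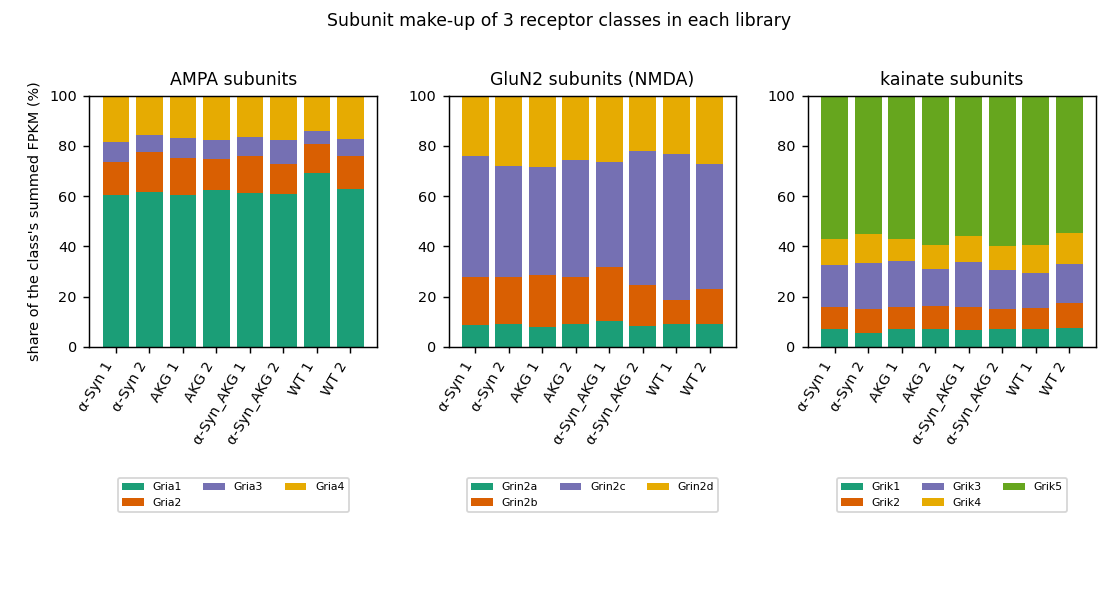
Bars show the share (%) of each subunit in the summed FPKM of the AMPA, GluN2 and kainate classes, 1 bar per library. Grin2b takes 16.5% to 21.7% of the GluN2 bar in the treated libraries and 9.36% and 14.2% in WT, while the Grik5 share of the kainate bar in WT, 59.3% and 54.8%, overlaps that of the treated libraries.

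Kainate receptors act on both sides of the synapse. Grik5, which encodes a high-affinity subunit that works only with another kainate subunit, was the most abundant, with 24.8 and 24.6 FPKM in α-Syn, 27.0 and 24.3 FPKM in AKG, 26.1 and 23.9 FPKM in α-Syn_AKG, and 16.5 and 20.3 FPKM in WT. The groups did not overlap WT. Its log2 difference was 0.41 ± 0.13, 0.46 ± 0.13 and 0.43 ± 0.13 in α-Syn, AKG and α-Syn_AKG (SE; limma adjusted p = 0.294, 0.269 and 0.349), and 0.27, 0.32 and 0.29 without WT replicate 1. With the length trend removed as well Grik5 kept 0.26, 0.30 and 0.27, so its difference moved by at most 0.02 when the trend was removed.

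Grik3 ranged from 5.98 to 8.55 FPKM in the treated groups against 3.84 and 5.84 FPKM in WT and did not overlap it. Grik1, Grik2 and Grik4, the other kainate subunit genes, overlapped WT replicate 2 in at least 1 treated library, with 2.40 to 3.30, 3.27 to 4.23 and 3.78 to 5.05 FPKM in the treated groups against 2.74, 3.69 and 4.48 FPKM in WT replicate 2. Grid1, a delta receptor subunit that links to presynaptic neurexins through cerebellins, had 15.2 and 14.2 FPKM in α-Syn, 17.3 and 13.4 FPKM in AKG, 15.1 and 13.2 FPKM in α-Syn_AKG, and 8.46 and 13.4 FPKM in WT. Its α-Syn libraries lay above WT, whereas AKG and α-Syn_AKG each had 1 library at or below WT replicate 2. Of the auxiliary subunits of kainate receptors, Neto1 ranged from 3.96 to 5.52 FPKM against 2.18 and 3.79 FPKM in WT.

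Neto2 encodes the other Neto protein. It had 8.52 and 8.70 FPKM in α-Syn, 7.84 and 5.78 FPKM in AKG, 7.93 and 7.76 FPKM in α-Syn_AKG, and 5.14 and 8.19 FPKM in WT. Only the α-Syn libraries lay above both WT libraries. The log2 difference was 0.36 in α-Syn, 0.044 in AKG and 0.24 in α-Syn_AKG (each ± 0.21, SE), and 0.064, -0.25 and -0.056 without WT replicate 1, so 2 of its 3 signs turned.

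Among metabotropic receptors Grm4, a group III receptor on nerve endings of the basal ganglia, had 14.2 and 12.7 FPKM in α-Syn, 15.2 and 14.4 FPKM in AKG, 12.8 and 13.5 FPKM in α-Syn_AKG, and 3.20 and 9.55 FPKM in WT. The treated libraries lay within a narrow range above both WT libraries, and the 2 WT libraries lay far apart. The log2 difference was 1.12 ± 0.37 in α-Syn, 1.25 ± 0.37 in AKG and 1.09 ± 0.37 in α-Syn_AKG (SE; limma adjusted p = 0.294, 0.269 and 0.349). It was 0.45, 0.58 and 0.42 without WT replicate 1, and 0.41, 0.54 and 0.39 with the length trend removed as well, the highest of the 30 members in α-Syn and AKG at that setting.

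Of the other group III genes, Grm8 did not share this pattern and Grm7 shared it only in α-Syn. Grm8 had 1.49 and 1.99 FPKM in α-Syn, 1.88 and 1.78 FPKM in AKG, 1.49 and 1.33 FPKM in α-Syn_AKG, and 1.15 and 1.82 FPKM in WT. Grm8 was the only tested member with a negative difference from WT with both control libraries, -0.033 in α-Syn_AKG. Grm7 ranged from 8.29 to 10.1 FPKM in the treated groups against 4.64 and 8.71 FPKM in WT. Its α-Syn libraries, at 9.99 and 10.1 FPKM, were above both WT libraries. AKG replicate 2 (8.55 FPKM) and both α-Syn_AKG libraries were below WT replicate 2.

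Grm2, a group II autoreceptor, had 11.3 and 15.1 FPKM in α-Syn, 13.1 and 13.0 FPKM in AKG, 12.4 and 10.2 FPKM in α-Syn_AKG, and 8.09 and 10.8 FPKM in WT. The α-Syn and AKG libraries did not overlap WT and the α-Syn_AKG libraries did. Grm3, the group II receptor that astrocytes also make, ranged from 10.2 to 13.1 FPKM against 6.35 and 10.8 FPKM in WT and overlapped it. Grm5, a group I receptor, had 9.71 and 10.4 FPKM in α-Syn, 10.5 and 9.15 FPKM in AKG, 10.3 and 7.33 FPKM in α-Syn_AKG, and 4.09 and 8.62 FPKM in WT, with 1 α-Syn_AKG library between the WT libraries.

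**Figure D3:**
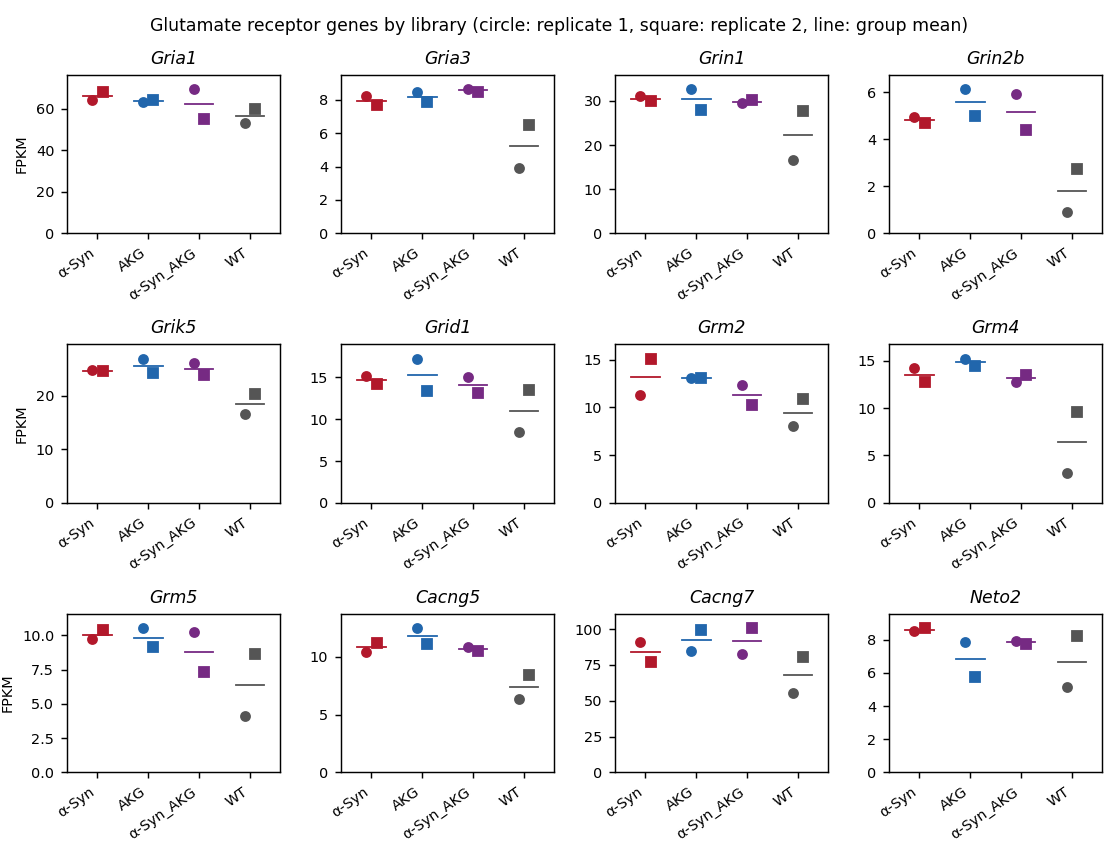
FPKM of 12 members in each library (linear axis from 0), with circles for replicate 1, squares for replicate 2 and a line at the group mean. For Grin2b, Grm4, Gria3, Grik5 and Cacng5 all 6 treated libraries sit above both WT libraries, and for every gene shown the lowest point is WT replicate 1.

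The TARPs included the most abundant member, Cacng7, which encodes γ-7. It had 91.3 and 77.3 FPKM in α-Syn, 84.5 and 99.7 FPKM in AKG, 82.3 and 101 FPKM in α-Syn_AKG, and 55.6 and 80.7 FPKM in WT. The AKG and α-Syn_AKG libraries were above WT and 1 α-Syn library was not. Its log2 difference was 0.32, 0.45 and 0.44 in α-Syn, AKG and α-Syn_AKG (each ± 0.21, SE), and 0.056, 0.18 and 0.17 without WT replicate 1.

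Cacng5, which encodes γ-5, was the TARP gene with the smallest p. It had 10.4 and 11.2 FPKM in α-Syn, 12.5 and 11.1 FPKM in AKG, 10.8 and 10.5 FPKM in α-Syn_AKG, and 6.35 and 8.44 FPKM in WT. All 6 treated libraries were above both WT libraries by more than the spread within any treated group. The log2 difference was 0.50 ± 0.14, 0.62 ± 0.14 and 0.48 ± 0.14 (SE; limma adjusted p = 0.294, 0.269 and 0.349), 0.32, 0.43 and 0.30 without WT replicate 1, and 0.36, 0.46 and 0.32 with the length trend removed as well.

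Cacng2, the stargazin gene that is disrupted in the stargazer mouse, ranged from 14.2 to 15.6 FPKM in the treated groups against 6.10 and 12.8 FPKM in WT. Cacng4 ranged from 18.7 to 23.3 FPKM against 11.7 and 18.0 FPKM in WT. Both had no treated library within or below the WT range. Cacng3 ranged from 9.20 to 10.9 FPKM against 7.64 and 9.40 FPKM in WT, and Cacng8 from 14.6 to 18.9 FPKM against 10.6 and 14.6 FPKM in WT, and in both 1 α-Syn_AKG library was below WT replicate 2.

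With AAV-α-synuclein alone the members were higher than in WT without passing the test. The log2 difference was above 0 for 30 of 30 members, against 48.8% of all genes tested, and its median was 0.44, against -0.0087 over all genes. None passed an adjusted p of 0.05, as for 0% of all genes, and 14 of 30 were higher at an unadjusted p under 0.05, against 9.27% of all genes. Both α-Syn libraries lay above both WT libraries for 26 of 30 members, against 26.3% of all genes and 62.5% of the longest 20%. The exceptions were Grik1, Grm3, Grm8 and Cacng7. Voom on the recovered reads also called 0 members and 0 genes.

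Much of this median rested on WT replicate 1. Without it the median was 0.19, 29 of 30 differences were above 0 (against 46.7% of all genes), and 5 of 30 were higher at an unadjusted p under 0.05 (against 3.03% of all genes): Gria3, Grin2b, Grik5, Grm4 and Cacng5. The same 26 members were above WT replicate 2 alone, against 34.6% of all genes. With the length trend removed too, the median was 0.15 and 26 of 30 differences were above 0, against 47.2% of all genes. With WT replicate 2 left out in its place, leaving WT replicate 1 as the only control, 23 of 30 members passed the adjusted p of 0.05, against 24.5% of all genes, and the median was 0.73.

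With AKG alone the pattern was close in size. The log2 difference from WT was above 0 for 30 of 30 members, against 48.6% of all genes, with a median of 0.47 against -0.0098. No member passed an adjusted p of 0.05, and 0.00729% of all genes did, a single gene, Th. At an unadjusted p under 0.05, 12 of 30 members were higher, against 10.5% of all genes. Both AKG libraries lay above both WT libraries for 25 of 30 members, against 26% of all genes and 58.3% of the longest 20%, the exceptions being Grik4, Grid1, Grm7, Grm8 and Neto2. Voom called 0 members and 1 gene.

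Without WT replicate 1 the AKG median was 0.18, 28 of 30 differences were above 0 (against 47.6% of all genes), and 8 members were higher at an unadjusted p under 0.05 (against 4.38%). These 8 were Gria3, Grin2b, Grin2c, Grin2d, Grik5, Grm4, Cacng4 and Cacng5. Both AKG libraries were above WT replicate 2 for 25 members, against 35% of all genes, and both below it for Grik4 and Neto2. With the length trend removed too, the median was 0.14 and 23 of 30 differences were above 0, against 45.8% of all genes. With WT replicate 2 left out, 21 members passed the adjusted p, against 24.6% of all genes, and the median was 0.77.

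In mice given both, 29 of 30 differences from WT were above 0, against 49.2% of all genes, and the median was 0.40 against -0.0055. No member and 0% of all genes passed an adjusted p of 0.05 by limma or voom. At an unadjusted p under 0.05, 10 of 30 members were higher, against 8.71% of all genes: Gria3, Grin2a, Grin2b, Grin2c, Grin2d, Grik5, Grm4, Cacng2, Cacng5 and Neto1. Both α-Syn_AKG libraries lay above both WT libraries for 15 of 30 members, against 21.3% of all genes and 46% of the longest 20%. With α-Syn_AKG replicate 2 left out, α-Syn_AKG replicate 1 was above both WT libraries for 26 members, against 36.4% of all genes.

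Without WT replicate 1 the median for mice given both was 0.10, 25 of 30 differences were above 0 (against 47.3% of all genes), and 6 members were higher at an unadjusted p under 0.05 (against 3.38%): Gria3, Grin2b, Grin2c, Grik5, Grm4 and Cacng5. Both libraries were above WT replicate 2 for 15 members, against 29.3% of all genes, and both below it for Grm7, Grm8 and Neto2. With the length trend removed too, the median was 0.091 and 21 of 30 differences were above 0, against 45.8% of all genes. With WT replicate 2 left out, 19 members passed the adjusted p, against 21.3% of all genes, and the median was 0.69.

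**Figure D4:**
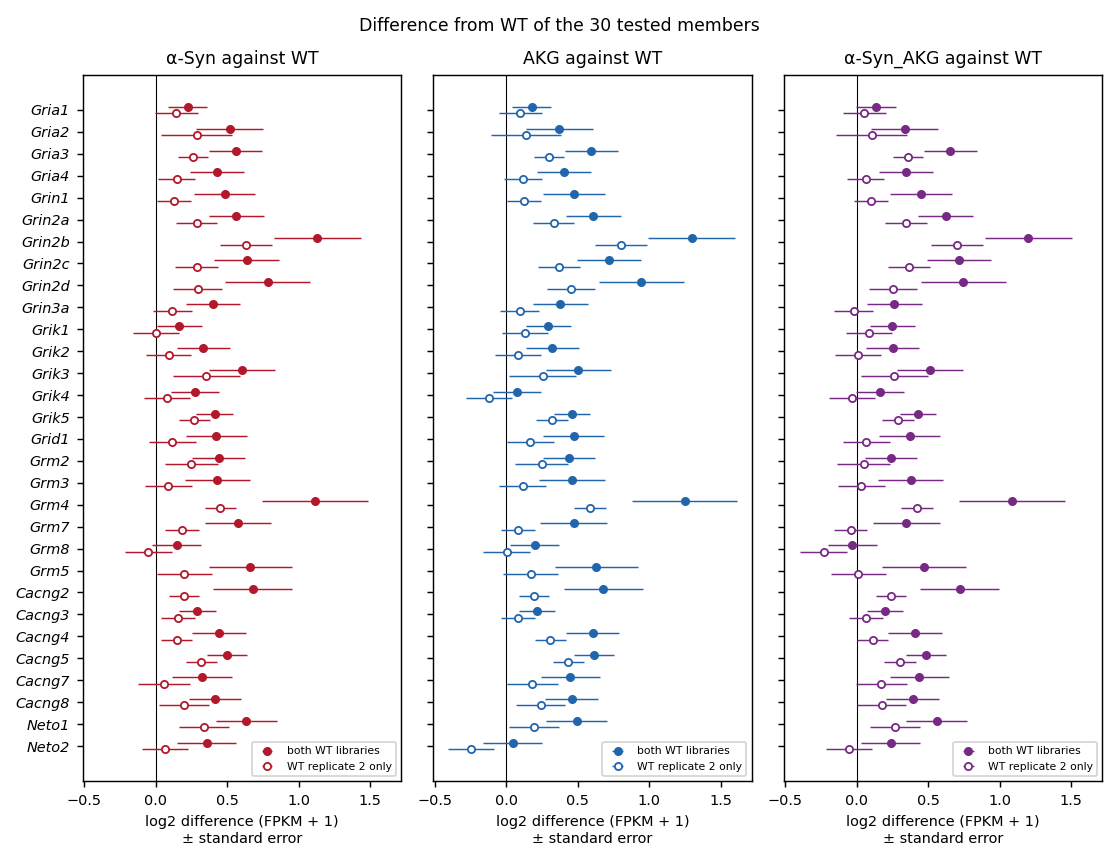
Log2 difference (FPKM + 1) from WT with its standard error for the 30 tested members in α-Syn, AKG and α-Syn_AKG, filled with both WT libraries and open with WT replicate 2 only. Open points lie left of filled ones for every member, and Grin2b and Grm4 lie farthest right with both WT libraries.

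The 3 treated groups were close to each other. In α-Syn_AKG against α-Syn, 0 of 30 members passed an adjusted p of 0.05 (0% of all genes) and 0 an unadjusted p under 0.05 in either direction (1.36% of all genes), and the median difference was -0.054. Gria3 was the only member with both α-Syn_AKG libraries above both α-Syn libraries (12.9% of all genes), and Grm7, Grm8 and Neto2 had both below (11.4% of all genes). In α-Syn_AKG against AKG, 0 of 30 passed an adjusted p (0% of all genes) or an unadjusted one (1.14% of all genes), and the median was -0.051. Gria3 again had both libraries above (11.3% of all genes), and 6 members, Grm2, Grm4, Grm7, Grm8, Cacng4 and Cacng5, had both below (11.8% of all genes). With α-Syn_AKG replicate 2 left out the medians were 0.024 against α-Syn and 0.022 against AKG, so both turned sign, and the second was 0.0092 without AKG replicate 1. Voom called no member in either comparison.

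Grm2 and Grm8 had the smallest p in both of these comparisons. The log2 difference of Grm2 was -0.20 ± 0.18 against α-Syn and -0.20 ± 0.18 against AKG, and that of Grm8 was -0.18 ± 0.17 against α-Syn and -0.23 ± 0.17 against AKG (SE, n = 2 per group). The limma adjusted p was 1.0 in each, to 3 digits. The standard errors were 0.17 or 0.18, and single libraries moved these differences. Over the libraries left out, Grm2 ranged from -0.40 to -0.0040 against α-Syn, the last without α-Syn replicate 2, and from -0.32 to -0.073 against AKG, the last without α-Syn_AKG replicate 2. Grm8 ranged from -0.31 to -0.049 against α-Syn, the last without α-Syn replicate 2, and from -0.28 to -0.19 against AKG.

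The interaction term asks whether the effect of AKG differed between mice with and without AAV-α-synuclein. It was below 0 for 30 of 30 members, against 49.2% of all genes, with a median of -0.52 against 0.0087 over all genes. No member passed an adjusted p of 0.05 (0% of all genes) by limma or voom. At an unadjusted p under 0.05, 6 of 30 were lower, against 3.66% of all genes: Grin2b, Grik5, Grm2, Grm4, Cacng4 and Cacng5. Cacng5 had -0.64 ± 0.20 and Grin2b -1.23 ± 0.43 (SE; limma adjusted p = 0.537 for both). This term uses the WT libraries, because it contains the AKG difference from WT with its sign turned. That difference was above 0 for 30 of 30 members, so the counts are not independent. Without WT replicate 1 the interaction term was below 0 for 28 of 30 members, against 47.9% of all genes. The median was then -0.25 and the values were -0.45 for Cacng5 and -0.73 for Grin2b. With WT replicate 2 left out, 14 members passed the adjusted p, against 9.98% of all genes, and the median was -0.82.

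Gene length was related to the differences over all genes, and the members are long. Their median length was 6010 bases of exon against 4070.5 for all genes tested, and with the genes tested split by length into 5 classes of 20%, 23 of 30 fell into the 2 longest. In the longest class (7249 to 41324 bases) the median over all genes was 0.24 in α-Syn, 0.23 in AKG and 0.22 in α-Syn_AKG against WT, while in the shortest class it was -0.28, -0.25 and -0.22. The 10 members in the longest class had medians of 0.54, 0.49 and 0.46.

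Without WT replicate 1 the longest class had medians over all genes of 0.13, 0.11 and 0.094 in α-Syn, AKG and α-Syn_AKG, and its 10 members 0.23, 0.15 and 0.10. In the next class (4855 to 7248 bases) the 13 members had 0.18, 0.17 and 0.065 without WT replicate 1, beside 0.028, 0.027 and 0.016 over all genes of that length. Of the 10 members in the longest class, WT replicate 2 was below all 6 treated libraries for 5, against 42.4% of all genes of that length: Gria3, Grin1, Grin2a, Grin2b and Grik3.

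**Figure D5:**
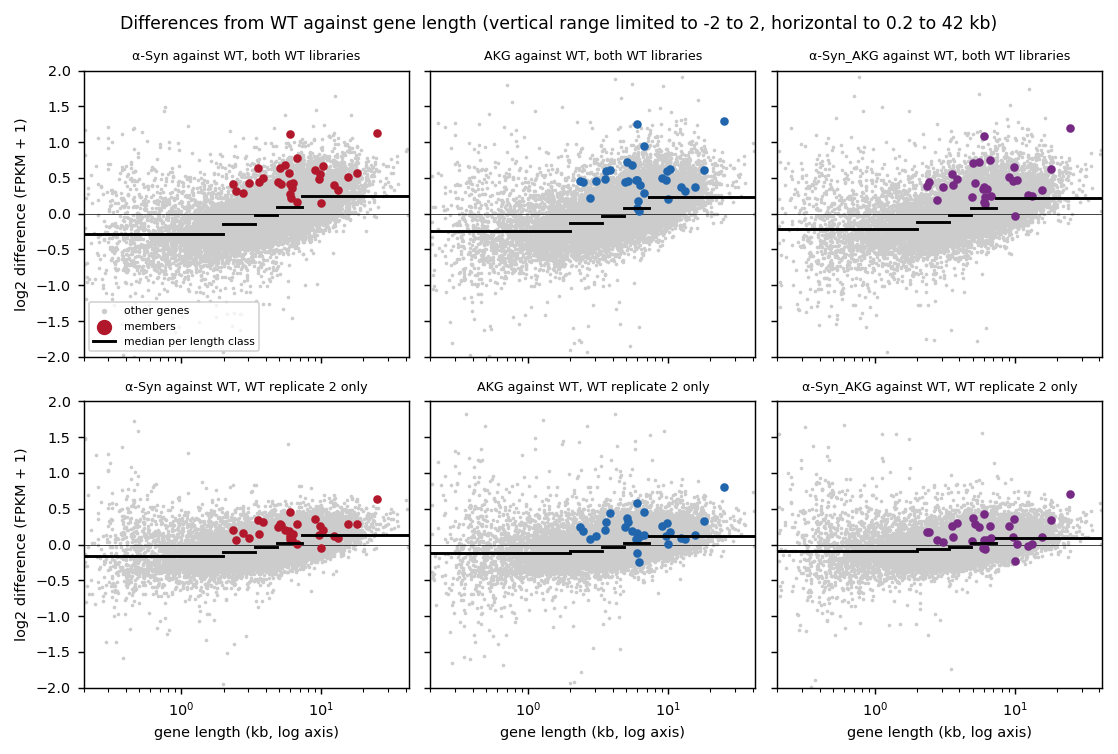
Log2 difference (FPKM + 1) from WT against gene length (kb, log axis) for α-Syn, AKG and α-Syn_AKG, with both WT libraries above and WT replicate 2 only below. Members are coloured, other genes grey, and black lines give the median of all genes in each length class, which climbs with length to 0.24, 0.23 and 0.22 above and to 0.13, 0.11 and 0.094 below.

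RNA for proteins that hold the receptors at the synapse showed values like the members', though not set beside genes of similar length. In a list of 21 scaffold and partner genes, 19, 18 and 20 had a difference from WT above 0 in α-Syn, AKG and α-Syn_AKG. The shares over all genes were 48.8%, 48.6% and 49.2%. Without WT replicate 1, 18 of the 21 were above 0 in each comparison, against 46.7%, 47.6% and 47.3% of all genes. The medians of the list were 0.42, 0.47 and 0.43, and 0.17, 0.22 and 0.22 without WT replicate 1. None passed an adjusted p of 0.05. Camk2a, the calcium-dependent kinase of the postsynaptic density, had 83.5 and 86.6 FPKM in α-Syn, 85.8 and 95.1 FPKM in AKG, 100.5 and 80.4 FPKM in α-Syn_AKG, and 40.02 and 62.5 FPKM in WT, with no overlap. Nsf, the ATPase that binds the Gria2 protein, had 104 to 111 FPKM in the treated groups against 58.1 and 104 FPKM in WT. Dlgap3 had 57.1 to 83.3 FPKM in the treated groups against 21.7 and 53.9 FPKM in WT.

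Genes of 12 other AMPA receptor auxiliary proteins were also measured. Of these, 11 were above 0 in each comparison with WT, against 48.8%, 48.6% and 49.2% of all genes in α-Syn, AKG and α-Syn_AKG. Without WT replicate 1 the counts were 6, 10 and 7, against 46.7%, 47.6% and 47.3% of all genes. The medians were 0.22, 0.24 and 0.27, and 0.013, 0.086 and 0.077 without WT replicate 1. Cnih2, a cornichon protein that slows AMPA receptor closing, had 152 to 186 FPKM in the treated groups against 146 and 167 FPKM in WT and overlapped it. At an unadjusted p under 0.05, 4, 4 and 2 of the 12 were higher in α-Syn, AKG and α-Syn_AKG, against 9.27%, 10.5% and 8.71% of all genes. Cnih3, another cornichon gene, and Shisa6, a further AMPA receptor partner, were chosen after their values were seen. Cnih3 had 14.2 to 19.1 FPKM in the treated groups against 10.6 and 10.9 FPKM in WT, and its log2 difference without WT replicate 1 was 0.53, 0.55 and 0.55. Shisa6 had 3.91 to 5.08 FPKM in the treated groups against 0.785 and 2.62 FPKM in WT, and neither gene overlapped WT.

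The 13 tested of 14 genes for glutamate release, uptake and supply had medians of 0.090, 0.039 and 0.098, and of 0.13, 0.033 and 0.036 without WT replicate 1. Of the 13, 8, 8 and 9 were above 0, against 48.8%, 48.6% and 49.2% of all genes. Slc1a2, the main glutamate transporter of astrocytes, was chosen after its values were seen and had 81.2 to 104 FPKM in the treated groups against 42.5 and 66.3 FPKM in WT, with no overlap. Glul, the glutamine synthetase of astrocytes, had 479 to 606 FPKM in the treated groups against 610.1 and 548 FPKM in WT. No gene of these lists passed an adjusted p of 0.05.

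Markers of cell types that carry these receptors were read in the same libraries, and none of the forebrain, thalamic or midbrain excitatory markers passed an adjusted p of 0.05. Of 10 markers of forebrain excitatory neurons, 5 were tested and 5 were under 1 FPKM, and their sum was 124 and 125 FPKM in α-Syn, 125 and 158 FPKM in AKG, 152 and 127 FPKM in α-Syn_AKG, and 64.7 and 93.7 FPKM in WT. Most of this sum was Camk2a and Slc17a7, the vesicular glutamate transporter of cortical neurons, which had 25.7 to 46.0 FPKM in the treated groups against 14.9 and 22.1 FPKM in WT. The 5 tested forebrain markers had median differences of 0.61, 0.81 and 0.72 in α-Syn, AKG and α-Syn_AKG. Without WT replicate 1 these medians were 0.35, 0.52 and 0.52. The 7 markers of thalamic and midbrain excitatory neurons had median differences of 0.69, 0.88 and 0.69 in α-Syn, AKG and α-Syn_AKG, and 0.13, 0.39 and 0.15 without WT replicate 1. Their summed level was 407 to 498 FPKM in the treated groups and 369.7 and 425 FPKM in WT.

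Prkcd, a thalamic marker chosen after its values were seen, had 88.0 and 54.6 FPKM in α-Syn, 97.1 and 91.5 FPKM in AKG, 72.3 and 100.4 FPKM in α-Syn_AKG, and 15.0 and 45.0 FPKM in WT. Both WT libraries were the lowest, as for Grm4 and Grin2b. The order of the treated libraries was shared in part. α-Syn replicate 2 was the lowest treated library for Prkcd, Grm4 (12.7 FPKM) and Grin2c (11.3 FPKM). α-Syn_AKG replicate 2 was the highest for Prkcd and Grin2c (14.2 FPKM), while AKG replicate 1 was the highest for Grm4 (15.2 FPKM). For Grin2b, α-Syn_AKG replicate 2 was the lowest treated library (4.41 FPKM). The 8 general neuron markers had medians of 0.22, 0.21 and 0.26, but -0.090, -0.046 and -0.040 without WT replicate 1. Microglia markers had medians of -0.23, -0.23 and -0.11 in α-Syn, AKG and α-Syn_AKG (-0.25, -0.20 and -0.091 without WT replicate 1). Astrocyte markers had -0.11, -0.16 and -0.084 (-0.020, -0.076 and 0.0012 without WT replicate 1). For oligodendrocyte markers they were -0.13, -0.12 and 0.087 (-0.39, -0.41 and -0.21 without WT replicate 1). Markers of oligodendrocyte precursors had 0.16, 0.18 and 0.19 (0.055, -0.046 and 0.081 without WT replicate 1). Striatal markers had -0.019, -0.14 and 0.069 (-0.017, -0.0032 and 0.14 without WT replicate 1). Those of GABA neurons had -0.097, -0.26 and 0.11 (-0.13, -0.31 and -0.045 without WT replicate 1).

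Grm4 and Grin2c are also abundant in cerebellar granule cells, for which 5 markers were chosen after the values were seen. Their summed level was 40.1 and 40.2 FPKM in α-Syn, 44.6 and 55.8 FPKM in AKG, 40.9 and 40.4 FPKM in α-Syn_AKG, and 35.1 and 38.5 FPKM in WT, so all 6 treated libraries were above WT. Most of this was Zic1, with 37.2 to 52.5 FPKM in the treated libraries against 30.1 and 35.8 FPKM in WT, while Neurod1 had 1.91 to 3.20 FPKM against 4.78 and 2.51 FPKM in WT. Gabra6, the defining marker of those cells, was at most 0.0674 FPKM in any library, Cbln3 at most 0.169 FPKM and Fat2 at most 0.0244 FPKM. For all of these markers, their part in the members' differences was not tested.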

How the data were processed

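Libraries were made from total RNA with a SMARTer mRNA kit, per the labels' protocols, and the genome builds GRCm38 and mm10 are named in the submitters' processing notes. No aligner or counter is named in the material used here. The authors deposited gene-level FPKM for each library, already scaled to gene length and library size, beside the lengths. Multiplied by length, 100% of values were whole multiples of 1 read (within 0.01), so reads were recovered, 16544190.0 to 19125423 per library, for an alternative with voom.

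Testing covered genes whose 8-library mean reached 1 FPKM, on log2(FPKM + 1) with limma 3.58.1 (R 4.3.3; 1 mean per group, eBayes with trend, two-sided, Benjamini-Hochberg over all genes tested, threshold 0.05). Fold changes on this scale understate those of low genes. With 4 residual degrees of freedom, the fit was also tested on simulated data. These had no outlying library and no trend with gene length, so that test cannot speak to either. The members and lists were chosen with earlier results of these data known, so no list was tested. Values per library are given for the 4 members with the smallest p in each comparison with WT, the 2 smallest in the others and the highest of each class. Length classes split all genes tested by the deposited length, 20% in each. The length trend was a spline with 5 degrees of freedom, removed from each library. The cerebellar markers, Prkcd, Cnih3, Shisa6, Slc1a2 and the counts of libraries that did not overlap were added after the values were seen. Promoter sequences are from RefSeq. Figures used Python 3.11.15 and matplotlib 3.10.9.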

Additional observations from a re-analysis of the deposited data

How the results depend on the processing

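The 0 members called in each of the 6 comparisons, and the sign of each median, held when low genes were kept, when the minimum was 5 FPKM, when the pseudocount was 0.1, and with quantile or median-of-ratios scaling, weighted libraries, no trend in eBayes, fits of the compared groups alone (not run for the interaction), the length trend removed, or voom. With the replicate block 0 members were called too, and the members at an unadjusted p under 0.05 numbered 11 in α-Syn, 10 in AKG and 9 in α-Syn_AKG against WT, beside 1619, 1820 and 1445 of all 13716 genes. Replicate numbers did not pair the libraries (correlations of their deviations were -0.32 to 0.34). Leaving out each library in turn gave medians of 0.19 to 0.73 in α-Syn, 0.18 to 0.77 in AKG and 0.10 to 0.69 in α-Syn_AKG against WT, -0.16 to 0.024 in α-Syn_AKG against α-Syn, -0.15 to 0.022 against AKG, and -0.82 to -0.25 for the interaction. The lone library left in a group is assumed to vary like the others. Members called ranged over 0 to 23, 0 to 21, 0 to 19 and 0 to 14, in each case with calls only where WT replicate 2 was left out. Without WT replicate 1 and with the length trend removed, the medians were 0.15, 0.14, 0.091 and -0.19.

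Members with both libraries above both of the other group ranged over 15 to 30 for α-Syn_AKG against WT, 2 to 9 against α-Syn and 1 to 12 against AKG when 1 library was left out. A group left with 1 library meets this rule more easily, so the upper ends are not comparable with the main counts. With all 8 libraries, 21.3%, 12.9% and 11.3% of all genes met it. The counts against α-Syn and AKG were 2 and 2 with the length trend removed, and the count against AKG was 0 with median-of-ratios scaling. Over the other settings the counts against WT ranged over 22 to 26 in α-Syn and 19 to 26 in AKG, and stayed at 15 in α-Syn_AKG. The difference turned sign for Gria1 in α-Syn_AKG against WT without α-Syn_AKG replicate 1, with a range of -0.031 to 0.30 over the libraries left out. With WT replicate 1 left out and the length trend removed it turned for Grin1 in AKG (-0.0012) and α-Syn_AKG (-0.00015), Grm5 in α-Syn_AKG (-0.098), and Neto2 in AKG (-0.29) and α-Syn_AKG (-0.090). Neto2 in AKG also turned with the length trend removed (-0.078), without WT replicate 1 (-0.25) and without AKG replicate 1 (-0.15), with a range of -0.25 to 0.34 over the libraries left out, and Neto2 in α-Syn_AKG without WT replicate 1, with a range of -0.056 to 0.53. The cause was not tested. Each tested member had at least 149 reads in every library, and the spread between the WT libraries limits the comparisons more than counting error.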
